A study of Mus musculus with 43 samples.

Results

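Y RNAs are short noncoding RNAs transcribed by RNA polymerase III, and the mouse has genes for a pair of them, Rny1 and Rny3. Both were taken by the names of their transcripts, Rny1-201 and Rny3-201, from count tables of small RNAs of the epididymis, of the fluid in its lumen and of the sperm in its cauda, where they are 2 of 4890 RNAs listed for tissue, 2 of 3178 for fluid and 2 of 4323 for sperm. Wild-type (WT) FVB mice were compared with mice of the same strain that lack the RNase A family genes Rnase9, Rnase10, Rnase11 and Rnase12 (KO), all 8 to 12 weeks old and not otherwise treated. The KO is a germline deletion of the gene cluster made by genome editing, so no Cre driver or transgene limits it to a cell type. Tissue of the caput, corpus and cauda, the segments that sperm pass in this order, gave 3 WT and 3 KO libraries each, except that KO corpus had 2. Fluid of the same segments gave 3 WT and 3 KO libraries each, and cauda sperm 4 WT and 4 KO libraries. Each fluid or sperm library pooled RNA of 3 mice, whereas pooling for tissue is not given in the sources used here. Sperm, cell debris and extracellular vesicles had been spun out of the fluid, so the Y RNAs measured there were those left in the supernatant.

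A Y RNA folds into a hairpin whose lower stem, formed by its 5′ and 3′ ends, binds the protein Ro60, and its run of U at the 3′ end binds the La protein. Ro60 and La are autoantigens that take part in the quality control and storage of small RNAs. Y RNAs are cut into shorter fragments in many cells, and such fragments are among the RNAs commonly found in blood and other body fluids. Many secreted ribonucleases of the RNase A family cut RNA outside cells, and the question was whether Y RNA levels differ in a mouse that lacks members of this family. The study describes the proteins of the deleted genes as predicted to be catalytically inactive, because they lack the family's active site motifs. It detected no cleavage of tRNAs and small rRNA by the recombinant proteins, and no significant drop of RNase activity in KO fluid. The counts do not record which part of a Y RNA a read came from, so full-length RNA and fragments are counted together.

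The 2 sequences are shown because the reads of each gene have to be told apart from those of the other and from related loci. They are the annotated transcripts in GRCm38 (mm10), written as DNA from 5′ to 3′, and the capitals mark the runs of at least 8 bases that occur in both.
Rny1: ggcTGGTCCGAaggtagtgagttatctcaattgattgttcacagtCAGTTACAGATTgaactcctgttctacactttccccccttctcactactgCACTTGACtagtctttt
Rny3: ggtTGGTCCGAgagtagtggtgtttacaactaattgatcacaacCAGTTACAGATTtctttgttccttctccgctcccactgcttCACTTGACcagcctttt
The shared runs lie near the 5′ end, in the middle and near the 3′ end, and the longest has 12 bases. The shortest read that the study's pipeline kept outside tRNAs has 16 bases, so no perfectly matching read can come from both genes. Rny1 (ENSMUSG00000065701.1) is 112 bases long and lies on the minus strand of chromosome 6, at chr6:47788069-47788180. Rny3 (ENSMUSG00000064945.1) is 102 bases long and lies on the plus strand at chr6:47781624-47781725. The annotation gives both as single-exon misc_RNA genes, 6343 bases apart, and no other gene overlaps either. RNAfold placed the first 8 bases of each in a stem with its 3′ end, with a minimum free energy of -34.3 kcal/mol for Rny1 and -27.1 kcal/mol for Rny3.

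Rny1 has related copies among the listed RNAs, and Rny3 has none there. Of the 97 windows of 16 bases in Rny1, 64 also occur in another listed RNA, against 0 of 87 windows in Rny3. A search found 16 listed RNAs similar to Rny1, the closest of them Gm26168 with 92.7% identity over 110 bases. The study describes keeping all best matches of a read, and a single primary match for its percentages of RNA types. The counts are therefore taken to include a read on every feature that it matched equally well, which was not checked. Part of the Rny1 counts then cannot be assigned to the Rny1 gene alone. Summed over all copies, their counts came to between 1.53% and 8.40% of the Rny1 count in fluid, between 3.31% and 16.6% in tissue and between 17.8% and 51.0% in sperm. Rny1 is therefore a firmer measurement in fluid than in sperm.

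Rny1 made up a larger share of the counts in every fluid library than in the other sample types, and Rny3 did so in most but not all. Rny1 took between 0.218% and 2.16% of all counts in the 18 fluid libraries, between 0.0160% and 0.0838% in the 8 sperm libraries and between 0.00526% and 0.0149% in the 17 tissue libraries. For Rny3 the ranges were 0.0101% to 0.752% in fluid, 0.00431% to 0.0233% in sperm and 0.00108% to 0.00500% in tissue. The ranges of Rny1 in the 3 sample types did not overlap, whereas those of Rny3 in sperm overlapped with those in tissue and in fluid. Sperm came from the cauda only. In WT, Rny3 took 0.0101%, 0.0733% and 0.0209% in cauda fluid against 0.00431% to 0.0164% in sperm. In KO it took 0.0421% to 0.366% in cauda fluid and 0.0127% to 0.0233% in sperm. Among the 1057 Ensembl small RNA entries of fluid, Rny1 had the highest count in 14 of 18 libraries and was never below rank 5, and Rny3 ranked between 2 and 82. In sperm, Rny1 ranked between 41 and 63 and Rny3 between 78 and 130 of 1924 entries. In tissue, they ranked between 66 and 138 and between 143 and 211 of 2104 entries. Tissue libraries were made by ARM-seq, a ligation protocol for tRNA-derived RNAs, and the others by OTTR-seq, which uses a template-jumping reverse transcriptase, so sample type and protocol cannot be told apart between tissue and the rest and no test was made.

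**Figure D1:**
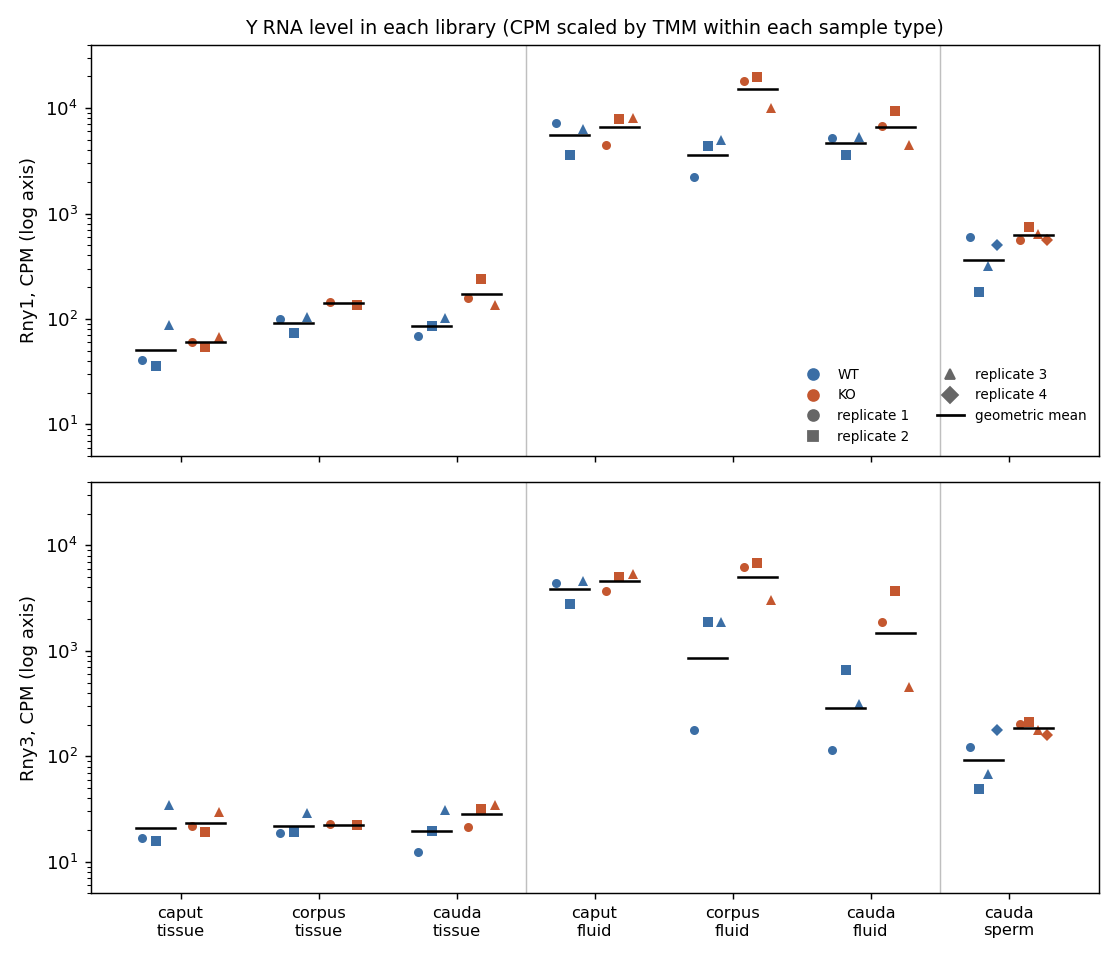
Level of Rny1 (top) and Rny3 (bottom) in each library, as scaled counts (CPM, log axis) adjusted within each sample type by TMM, for WT (blue) and KO (orange) groups. Symbol shapes give the replicate number and black bars the geometric mean. Both Y RNAs are higher in KO than in WT corpus fluid without overlap, and Rny3 falls from caput to cauda in WT fluid while the Rny1 libraries of the WT fluid segments overlap.

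The counts of a library summed to between 30142156 and 249732714 in tissue, between 1948718 and 12320922 in fluid and between 1134840 and 62128314 in sperm. The lowest Y RNA counts were 325 in tissue, 1198 in fluid and 125 in sperm, so counting error was small beside the spread between libraries. The transcripts of Rnase9-12 are not among the counted RNAs, so the genotype could not be checked from the counts. The WT caput tissue library 3 and the 6 caput fluid libraries carry a section entry that names the cauda, and they were grouped by their titles. MicroRNAs of germ cells and sperm summed to between 23.8 and 68.3 CPM in sperm and between 0.0763 and 1.65 CPM in tissue. Those of epithelium summed to between 7.57 and 25.9 CPM in tissue and between 6.24 and 23.9 CPM in sperm, so their ranges overlapped. CPM was scaled within each sample type, so these ranges are only a rough check of the labels. Fluid, although cleared of cells, held microRNAs of blood cells at 27.3 to 192 CPM. Those of smooth muscle summed there to between 76.8 and 470 CPM and those of epithelium to between 27.1 and 298 CPM. The comparisons below share groups, for example WT corpus fluid in the genotype and segment comparisons. In tissue, the deepest library of each segment and genotype with 3 libraries was replicate 3. Levels in bulk samples cannot tell fewer cells of a type from less RNA per cell.

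In corpus fluid, both Y RNAs were about 4 times as abundant in KO as in WT. The Rny1 level, in CPM (counts per 1000000 of the library size after TMM scaling), was 2200, 4344 and 4997 in WT libraries 1 to 3 and 18075, 19716 and 9993 in KO libraries 1 to 3. Rny3 had 179, 1869 and 1884 CPM in WT and 6295, 6852 and 3004 CPM in KO. For each of the 2 RNAs every KO library lay above every WT library, as did 20.4% of the 2023 RNAs tested. Rny1 rose by a log2 fold change of 2.05 (SE, the standard error, 0.40), with an adjusted p of 0.00235 in the quasi-likelihood test of edgeR after Benjamini-Hochberg adjustment over all RNAs. Rny3 rose by a log2 fold change of 2.04 (SE 0.71), with edgeR's adjusted p of 0.0455. These are 2 calls of 2, whereas 13.5% of all RNAs tested were called higher in this comparison.

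The call on Rny1 in corpus fluid held when any library was left out and under every alternative tried, with log2 fold changes from 1.30 to 2.30. The call on Rny3 was lost without any 1 of WT libraries 1, 2 and 3 and KO libraries 1 and 2, with adjusted p-values up to 0.165, and it rested in part on WT library 1, where Rny3 was lowest. Without that library the log2 fold change was 1.51. When tRNAs, tRNA fragments and rRNA fragments were left out of the scaling factors, the median over all RNAs moved by -0.81. The fold change was then 1.30 for Rny1 and 1.33 for Rny3, which is 2.01 and 2.04 above that median. A change of scaling moves all RNAs nearly alike, so this distance cannot tell which scaling is right. Rny3 did not pass the test with these factors (adjusted p = 0.147 by edgeR) or with total counts only (adjusted p = 0.0661 by edgeR). The KO corpus libraries were the shallowest of the fluid, with 1948718 to 3373869 summed counts against 3989262 to 10172577 in WT corpus. The microRNAs that mark epithelium (5 of 5 listed) summed to between 87.5 and 134 CPM in KO and between 27.1 and 62.6 CPM in WT corpus fluid, and the endothelial Mir126a to between 25.7 and 73.8 and between 9.41 and 22.4 CPM. The part of depth and of these markers in the result was not tested.

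In cauda fluid, Rny3 showed a large but scattered difference and Rny1 a small one. Rny3 had 114, 658 and 315 CPM in WT libraries 1 to 3 and 1873, 3718 and 458 CPM in KO libraries 1 to 3. KO libraries 1 and 2 were above every WT library, whereas KO library 3 lay among them. The log2 fold change of Rny3 was 2.48 (SE 0.72), with an unadjusted p of 0.00227 and an adjusted p of 0.173 from edgeR's test, which called 0 of the 2023 RNAs in cauda fluid, where 188 had an unadjusted p under 0.05. DESeq2 gave 2.48 with an adjusted p of 0.0221 and called 42 RNAs, 3.05% of those it tested. edgeR's adjusted p was 0.0335 without KO library 3 and 0.0432 without WT library 2. Rny1 had 5221, 3561 and 5353 CPM in WT and 6746, 9468 and 4434 CPM in KO, a log2 fold change of 0.55 (SE 0.39, adjusted p = 0.650 by edgeR), with overlapping libraries.

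In caput fluid, neither Y RNA passed the test. Rny1 had 7302, 3572 and 6392 CPM in WT and 4492, 7965 and 8123 CPM in KO libraries, with a log2 fold change of 0.25 (SE 0.39, adjusted p = 0.906 by edgeR). Rny3 had 4378, 2806 and 4605 CPM in WT and 3709, 4992 and 5318 CPM in KO, also a log2 fold change of 0.25 (SE 0.68, adjusted p = 0.964 by edgeR). The libraries of the genotypes overlapped for both, and edgeR called 0 RNAs in caput fluid, where 214 had an unadjusted p under 0.05 and DESeq2 called 9. The study reported higher Rny3 fragments in KO epididymal fluid, with plots of corpus and of caput fluid. In caput fluid the Rny3 libraries of the genotypes were not separated here.

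The KO effect was next compared between segments of fluid as an interaction term. For Rny1 it was larger in corpus than in caput fluid by 1.80 on the log2 scale (SE 0.55), with an unadjusted p of 0.00362 and edgeR's adjusted p of 0.108. It was smaller in cauda than in corpus fluid by -1.50 (SE 0.55, adjusted p = 0.0925 by edgeR). Between cauda and caput fluid it differed by 0.29 (SE 0.55, adjusted p = 0.838 by edgeR). For Rny3 the effect differed by 1.79 between corpus and caput (SE 0.97, adjusted p = 0.471 by edgeR), by 0.44 between cauda and corpus (SE 0.96, adjusted p = 0.847 by edgeR) and by 2.23 between cauda and caput fluid (SE 0.97, adjusted p = 0.384 by edgeR). None of these differences passed the test, which called 1.83% of all RNAs between corpus and caput, 7.37% between cauda and corpus and 0 between cauda and caput (221 at an unadjusted p under 0.05), so the data do not show that the genotypes differed in the corpus alone.

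**Figure D2:**
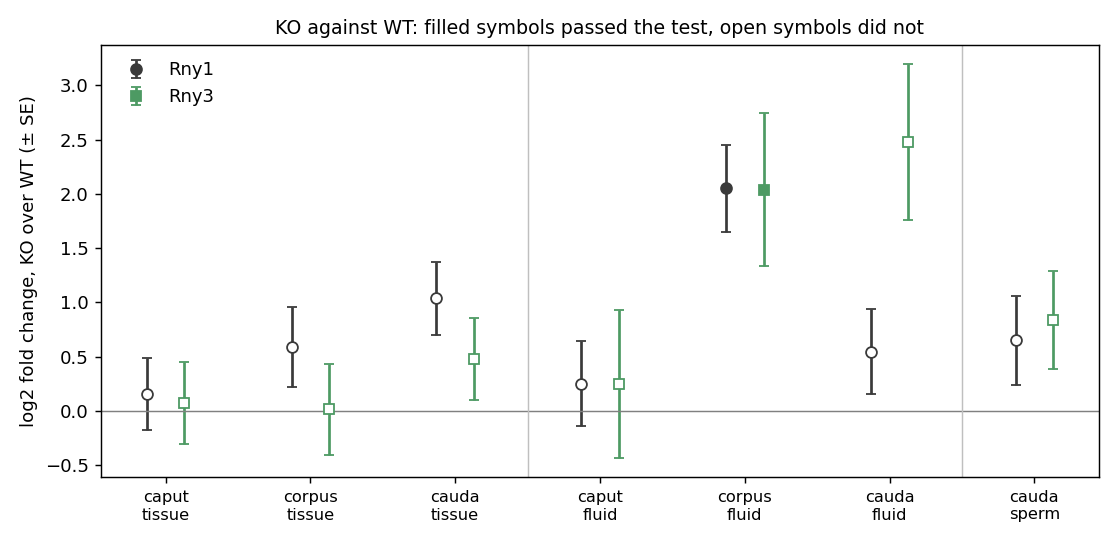
Log2 fold change of KO over WT for Rny1 (circles) and Rny3 (squares) in each segment of tissue and fluid and in cauda sperm, with standard errors from edgeR. Filled symbols passed the test (adjusted p under 0.05 and absolute log2 fold change above 1), which applies to both Y RNAs in corpus fluid, at 2.05 and 2.04.

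Along the WT fluid, Rny3 declined from caput to cauda and Rny1 did not change detectably. The mean Rny3 level was 3930 ± 980 CPM (SD, n = 3) in caput, 1311 ± 980 CPM (SD, n = 3) in corpus and 363 ± 275 CPM (SD, n = 3) in cauda fluid. Rny3 fell by 3.44 on the log2 scale from caput to cauda (SE 0.75), with edgeR's adjusted p of 0.00264. Every cauda library was below every caput library, as for 26.6% of RNAs, and 15.4% of RNAs were called lower in this comparison. The call held under all alternatives, with log2 fold changes from -4.16 without WT cauda library 2 to -3.00 without WT cauda library 1. Of the steps between neighbours, corpus against caput gave -1.58 (SE 0.70, adjusted p = 0.120 by edgeR) and cauda against corpus -1.85 (SE 0.70, adjusted p = 0.131 by edgeR), so neither neighbouring pair was separated by the test. The second of these passed it without WT corpus library 1 (-2.35, adjusted p = 0.0484 by edgeR) or without WT cauda library 2 (-2.59, adjusted p = 0.0425 by edgeR). Of all RNAs, 17.7% and 2.17% were called in these 2 comparisons. The microRNAs that mark germ cells and sperm (13 of 15 listed) summed to between 3.33 and 5.54 CPM in WT caput and between 29.8 and 58.0 CPM in WT cauda fluid. Those of blood cells went from between 31.4 and 35.0 CPM to between 77.4 and 87.2 CPM and those of smooth muscle from between 76.8 and 139 CPM to between 147 and 321 CPM. The part of these markers in the result was not tested.

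Rny1 had 5755 ± 1944 CPM (SD, n = 3) in caput, 3847 ± 1463 CPM (SD, n = 3) in corpus and 4711 ± 999 CPM (SD, n = 3) in cauda WT fluid. Its log2 fold change from caput to cauda was -0.29 (SE 0.39, adjusted p = 0.611 by edgeR), and the libraries of all 3 segments overlapped. In KO fluid, the corpus had the highest mean for both. The mean level of Rny1 was 6860 ± 2053 CPM (SD, n = 3) in caput, 15928 ± 5205 CPM (SD, n = 3) in corpus and 6883 ± 2519 CPM (SD, n = 3) in cauda. From caput to corpus Rny1 rose by a log2 fold change of 1.22 (SE 0.39, adjusted p = 0.0338 by edgeR), where 11.5% of RNAs were called higher. This call was lost without any 1 of KO caput libraries 1, 2 and 3 and KO corpus libraries 1 and 2, with adjusted p-values up to 0.143, with scaling factors without tRNAs and the fragments of tRNA and rRNA (1.02) and with no filter on low counts (1.01). From KO caput to KO corpus fluid the epithelial microRNAs went from between 241 and 298 CPM to between 87.5 and 134 CPM and those of germ cells and sperm from between 4.61 and 5.68 CPM to between 21.7 and 30.2 CPM, and their part in the result was not tested. From corpus to cauda the log2 fold change of Rny1 was -1.21 (SE 0.39, unadjusted p = 0.00544, adjusted p = 0.0840 by edgeR), and every cauda library was below every corpus library, as for 13.7% of RNAs. Rny3 had 4673 ± 851 CPM (SD, n = 3) in KO caput, 5383 ± 2079 CPM (SD, n = 3) in KO corpus and 2016 ± 1635 CPM (SD, n = 3) in KO cauda fluid, and none of its segment comparisons passed the test. In KO fluid 14.5% of RNAs were called lower in cauda than in caput, and 2.97% were called in either direction between cauda and corpus.

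In tissue, no difference between KO and WT passed the test over all libraries without a replicate block, and the largest was that of Rny1 in the cauda. CPM values of tissue, fluid and sperm were scaled separately, and those of the Y RNAs are not compared between sample types. In cauda tissue, Rny1 had 69.5, 86.7 and 102 CPM in WT libraries 1 to 3 and 157, 238 and 135 CPM in KO libraries 1 to 3. Every KO library was above every WT library, as for 6.91% of the 3488 RNAs tested. The log2 fold change was 1.04 (SE 0.33), with an unadjusted p of 0.00672 and edgeR's adjusted p of 0.161, in a comparison where 0.0287% of RNAs were called higher. WT and KO cauda libraries of the same replicate number deviated together, although the labels do not say what a shared number stands for. With the replicate number as a block the log2 fold change was 1.08 (SE 0.30) with edgeR's adjusted p of 0.0273, so that Rny1 passed the test, as 9.35% of all RNAs did in either direction. The size depended on the scaling. It was 0.38 with total counts only, where the median over all RNAs moved by -0.54, and the distance of Rny1 from that median was 0.80 against 0.92 with TMM. By construction such a distance changes little with the scaling, so it cannot tell which fold change is right.

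Rny3 in cauda tissue had 12.4, 19.5 and 30.7 CPM in WT and 21.4, 31.8 and 34.3 CPM in KO libraries. The groups overlapped, and the log2 fold change was 0.48 (SE 0.38, adjusted p = 0.574 by edgeR). Within the 3 pairs of the same number KO was the higher each time, and with the block the log2 fold change was 0.55 (unadjusted p = 0.0470, adjusted p = 0.184 by edgeR). In corpus tissue, Rny1 had 101, 73.7 and 105 CPM in WT and 145 and 136 CPM in KO, a log2 fold change of 0.59 (SE 0.37, adjusted p = 0.700 by edgeR). Both KO corpus libraries lay above the WT libraries, as for 11.8% of RNAs, but the difference did not pass the test. Rny3 in corpus tissue had 18.8, 19.2 and 28.7 CPM in WT and 22.9 and 22.2 CPM in KO, with a log2 fold change of 0.02 (SE 0.42, adjusted p = 0.999 by edgeR). In caput tissue the log2 fold changes were 0.16 for Rny1 (SE 0.33) and 0.07 for Rny3 (SE 0.38), each with an adjusted p of 1 by edgeR. Caput and corpus tissue had 0 RNAs called by edgeR, with 34 and 279 RNAs at an unadjusted p under 0.05, and DESeq2 called 0 and 24.

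Across the segments of WT tissue no difference of either Y RNA passed the test. The mean Rny1 level was 54.8 ± 28.2 CPM (SD, n = 3) in caput, 93.3 ± 17.1 CPM (SD, n = 3) in corpus and 86.2 ± 16.5 CPM (SD, n = 3) in cauda. Its log2 fold changes against caput were 0.77 for corpus (SE 0.33, adjusted p = 0.162 by edgeR) and 0.65 for cauda (SE 0.33, adjusted p = 0.179 by edgeR). With the replicate number as a block they were 0.82 (adjusted p = 0.0541 by edgeR) and 0.70 (adjusted p = 0.0753 by edgeR), which did not pass either. One library decided these results, because WT caput library 3 had 87.2 CPM of Rny1 against 41.1 and 36.1 CPM in libraries 1 and 2. Without it the log2 fold changes were 1.23 and 1.22 and both passed the test (edgeR's adjusted p = 0.0148 and 0.00731). This is the library whose section entry names the cauda, but the smooth muscle markers Mir143 and Mir145a summed to at most 40.3 CPM in every WT caput library against at least 108 CPM in WT cauda tissue.

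The mean Rny3 level in WT tissue was 22.3 ± 10.7 CPM (SD, n = 3) in caput, 22.3 ± 5.58 CPM (SD, n = 3) in corpus and 20.9 ± 9.24 CPM (SD, n = 3) in cauda, and no pair of segments differed by the test. Of all RNAs, 15.7% were called higher in WT cauda than in WT caput tissue, 11.8% differed in either direction between corpus and caput and 3.41% between cauda and corpus. In KO tissue, Rny1 rose from 61.1 ± 6.44 CPM (SD, n = 3) in caput to 177 ± 54.2 CPM (SD, n = 3) in cauda, a log2 fold change of 1.53 (SE 0.34, adjusted p = 0.00265 by edgeR), where 17.1% of RNAs were called higher. With total counts only it was 0.63 (adjusted p = 0.332 by edgeR). With scaling factors without tRNAs and the fragments of tRNA and rRNA it was 0.98 (adjusted p = 0.0227 by edgeR), just under the limit of 1. Mir143 and Mir145a, which mark smooth muscle, summed to between 107 and 140 CPM in KO cauda and between 23.5 and 39.8 CPM in KO caput tissue, and their part in the result was not tested. KO corpus tissue had 141 ± 6.56 CPM (SD, n = 2) of Rny1, a log2 fold change of 1.20 against KO caput (SE 0.36, adjusted p = 0.193 by edgeR). This passed the test with only these 2 groups in the fit (1.14, adjusted p = 0.0476), with replicates 1 and 2 only (1.34, adjusted p = 0.0441) and with the replicate block (1.32, adjusted p = 0.0433 by edgeR), although these groups share only the numbers. Rny3 in KO tissue was 23.5 ± 5.43 CPM (SD, n = 3) in caput, 22.5 ± 0.461 CPM (SD, n = 2) in corpus and 29.2 ± 6.82 CPM (SD, n = 3) in cauda, and its differences did not pass. Of all RNAs, 0.631% were called between KO corpus and caput and 12.3% between KO cauda and corpus.

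In cauda sperm, both Y RNAs had higher means in KO than in WT, but the libraries overlapped. Rny1 ranged from 181 to 600 CPM with a median of 414 CPM in the 4 WT libraries and from 566 to 753 CPM with a median of 605 CPM in the 4 KO libraries. Rny3 ranged from 48.8 to 179 CPM in WT, with a median of 95.3 CPM, and from 158 to 209 CPM in KO, with a median of 190.0 CPM. The log2 fold change was 0.65 for Rny1 (standard error 0.41, unadjusted p = 0.137, edgeR's adjusted p = 0.484) and 0.84 for Rny3 (standard error 0.45, unadjusted p = 0.0874, edgeR's adjusted p = 0.385). edgeR called 0 of the 2480 RNAs tested in sperm, 434 of which had an unadjusted p under 0.05, and DESeq2, which called 140 RNAs, 4.60% of those it tested, gave adjusted p-values of 0.689 and 0.495 for the 2 Y RNAs. The WT libraries spread more than the KO libraries and included the 3 libraries with the lowest summed counts, and the part of depth in the result was not tested.

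Because both Y RNAs are counted in the same library, their ratio does not depend on the scaling. Per base of annotated length, Rny3 was below Rny1 in all 43 libraries, with a ratio from 0.0240 to 0.907 in fluid, from 0.146 to 0.480 in tissue and from 0.224 to 0.391 in sperm. The ratio of raw counts was compared on a log2 scale with a pseudocount of 0.5 in 14 exact permutation tests, 2-sided and adjusted by the Benjamini-Hochberg method over the 14.

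**Figure D3:**
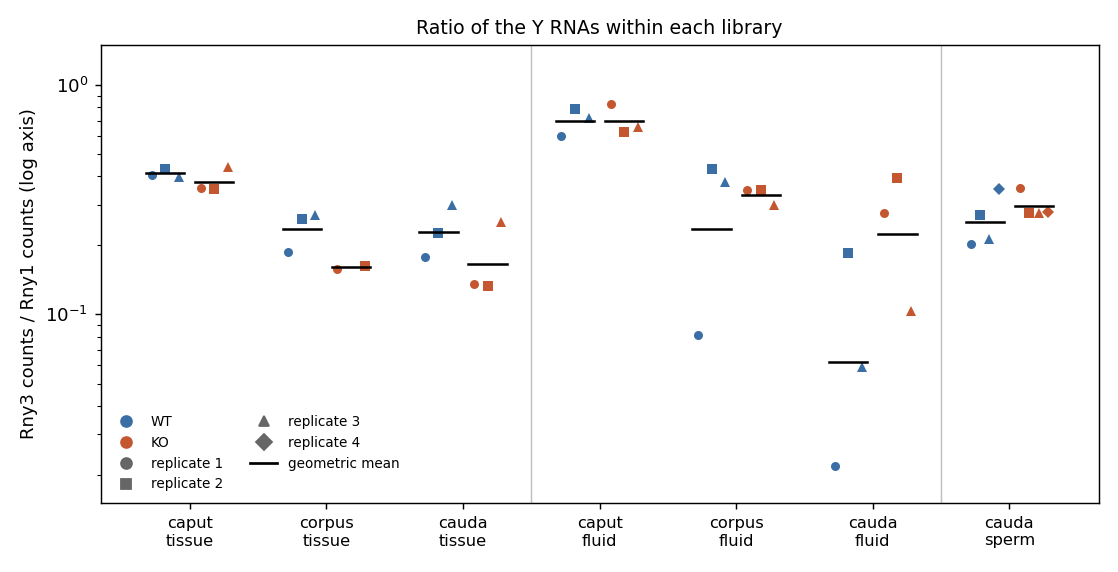
Ratio of Rny3 counts to Rny1 counts in each library (log axis) by segment and sample type, for WT (blue) and KO (orange), with black bars for the geometric mean. Caput libraries have the highest ratio in tissue and in fluid, without overlap with the other segments of the same genotype, and WT cauda fluid holds the lowest value of 0.0219.

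The ratio was highest in the caput, both in tissue and in fluid. In caput tissue it was 0.407, 0.432 and 0.397 in WT libraries and 0.355, 0.351 and 0.437 in KO libraries. Corpus tissue had 0.187, 0.261 and 0.272 in WT and 0.157 and 0.163 in KO. Cauda tissue had 0.179, 0.225 and 0.300 in WT and 0.136, 0.133 and 0.254 in KO. Within each genotype all caput libraries were above all corpus and cauda libraries. With genotypes as strata, the log2 ratio fell by 1.02 from caput to corpus tissue and fell by 1.02 from caput to cauda tissue (exact permutation test, p = 0.005, adjusted p = 0.0175 for each, the smallest p that these tests can give). Without any 1 of the 3 KO caput libraries the first was -1.05 to -0.97 with a p of 0.0167, the smallest that the smaller exact permutation test can give, and an adjusted p of 0.0571. Corpus and cauda tissue differed by 0.0046 (exact permutation test, adjusted p = 1). These segment tests took libraries as independent, and none that keeps replicate numbers together was run. Same-numbered libraries of the WT tissue segments, and of KO caput and cauda tissue, deviated together, so the p-values may be too small or too large.

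Fluid showed a similar order with a wider range. The ratio was 0.600, 0.786 and 0.720 in WT and 0.826, 0.627 and 0.655 in KO caput fluid. In corpus fluid it was 0.0813, 0.430 and 0.377 in WT and 0.348, 0.348 and 0.301 in KO. In cauda fluid it was 0.0219, 0.185 and 0.0588 in WT and 0.278, 0.393 and 0.103 in KO. WT library 2 was the highest of its group by far, and KO library 3 the lowest of its group. The log2 ratio fell by 1.32 from caput to corpus and fell by 2.56 from caput to cauda fluid (exact permutation test, p = 0.005, adjusted p = 0.0175 for each). The corpus result missed the threshold without any 1 of the 3 WT caput libraries, at differences from -1.37 to -1.27 and an adjusted p of 0.0525 in the exact permutation test. From caput to cauda the difference was -3.49 in WT and -1.64 in KO. With medians in place of means, none of the 4 differences between caput and another segment passed, with adjusted p-values from 0.0933 to 0.257 in exact permutation tests. Cauda against corpus fluid gave -1.25 with overlapping libraries (exact permutation test, p = 0.08, adjusted p = 0.187).

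None of the 7 comparisons of this ratio between KO and WT passed the test, and 5 of them compare 3 with 3 libraries, where the smallest possible p is 0.1. The largest difference was 1.85 on the log2 scale in cauda fluid (exact permutation test, p = 0.2, adjusted p = 0.311), with KO library 3 below WT library 2. In corpus fluid, where both Y RNAs rose, the difference was 0.49 (exact permutation test, p = 1), and it changed sign to -0.28 without WT library 1. In caput fluid it was -0.00080 (exact permutation test, p = 1). In sperm it was 0.22, with a mean log2 ratio of -1.98 in WT and -1.76 in KO (exact permutation test, p = 0.2, adjusted p = 0.311, smallest possible p 0.0286). In tissue the log2 ratio was lower in KO by -0.12 in caput, -0.56 in corpus and -0.46 in cauda, with adjusted p-values of 0.509, 0.311 and 0.420 from exact permutation tests. In cauda tissue, where same-numbered libraries deviated together, the ratio was lower in KO in 3 of 3 pairs of the same number (exact permutation test within pairs, p = 0.25, the smallest it can give). The labels do not state such a pairing.

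Cauda fluid and cauda sperm come from the same segment and the same protocol, but sample type and the batch of library preparation cannot be told apart. The counts of the Rny1 copies also came to 17.8% to 51.0% of the Rny1 count in sperm, against 1.53% to 8.40% over all fluid libraries. With genotypes as strata, the log2 ratio was lower in the fluid than in sperm by -1.22 (exact permutation test, p = 0.0204, adjusted p = 0.0571). The difference was -2.03 within WT, where all fluid libraries were below all sperm libraries, and -0.40 within KO, where they overlapped. It did not pass the test, and it did so without KO cauda fluid library 2 (adjusted p = 0.014).

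Other stable noncoding RNAs, most of them transcribed by RNA polymerase III, were set beside the Y RNAs as a list of 14, of which 9 were tested in fluid and sperm and 11 in tissue. In corpus fluid, where 13.5% of all RNAs were called higher in KO, 1 of 9 was, Rn7sk, the 7SK RNA that holds back transcription elongation, which went from 260 ± 120 CPM (SD, n = 3) in WT to 724 ± 156 CPM (SD, n = 3) in KO. Its log2 fold change was 1.48 (SE 0.43, adjusted p = 0.0201 by edgeR). The vault RNA Vaultrc5 had 0.90 (edgeR's adjusted p = 0.0929), Rn7s1 and Rn7s2, near-identical in their values, had -0.38 each, and the median of the list was 0.14 against 0.098 over all RNAs tested. The Y RNAs, at 2.05 and 2.04, lay above every member of this list in that comparison. None of the list was called in KO against WT in the other segments of fluid, in tissue or in sperm. In cauda tissue 10 of 11 members had a positive log2 fold change, with a median of 0.93 against 0.12 over all RNAs, where Rny1 had 1.04. In sperm 9 of 9 were positive, with a median of 0.67 against -0.0028 over all RNAs, where Rny1 had 0.65 and Rny3 0.84. In corpus tissue 10 of 11 were positive (median 0.44), in caput tissue 8 of 11 (median 0.042) and in caput and cauda fluid 4 of 9 each.

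From caput to cauda WT fluid, 3 of 9 members of the list fell, where 15.4% of all RNAs were called lower. Rn7sk fell by 1.64 (SE 0.43, adjusted p = 0.00848 by edgeR), Vaultrc5 fell by 1.42 (SE 0.38, adjusted p = 0.00863 by edgeR), and Rprl3, an RNA named as related to RNase P RNA, fell by 1.64 (SE 0.53, adjusted p = 0.0283 by edgeR). The median of the list was -0.63 against -0.17 over all RNAs. Rny3, at -3.44, was lower than every member of the list in this comparison, and Rny1, at -0.29, was above the median of the list. In KO fluid 2 of 9 fell from caput to cauda, where 14.5% of all RNAs were called lower. Rn7sk fell by 1.89 (SE 0.43, adjusted p = 0.00372 by edgeR) and Rn7s6, listed under a 7S RNA name, fell by 1.23 (SE 0.31, adjusted p = 0.00754 by edgeR). In KO tissue 5 of 11 rose from caput to cauda, Rn7sk, Rmrp, Rpph1, Rprl2 and Rprl3, with log2 fold changes from 1.24 to 1.71, in the comparison where Rny1 rose by 1.53 and 17.1% of all RNAs were called higher. In WT tissue 1 of 11 rose, Rprl2, by 1.33 (SE 0.44, adjusted p = 0.0345 by edgeR), where 15.7% of all RNAs were called higher.

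**Figure D4:**
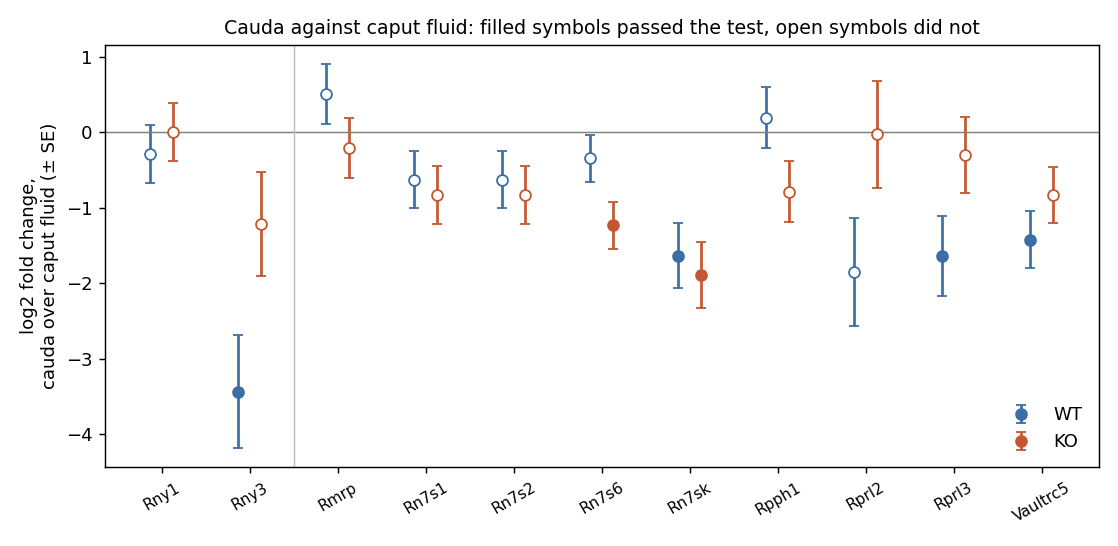
Log2 fold change from caput to cauda fluid, with standard errors from edgeR, for the Y RNAs (left of the line) and the 9 tested RNAs of the list, in WT (blue) and KO (orange). Filled symbols passed the test. Rny3 in WT has the lowest value, -3.44, while Rny1 is at -0.29 in WT and at 0.0047 in KO.

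The 2 Y RNAs were not each other's closest match in level across libraries. Over the 18 fluid libraries the Pearson correlation of their log2 CPM values was 0.652, and 55 other RNAs were closer to Rny1 and 242 closer to Rny3. In tissue it was 0.557 over 17 libraries and in sperm 0.930 over 8 libraries. In fluid, the RNAs closest to Rny1 were copies of 5S rRNA annotated as repeats, rmsk_5S_9, rmsk_5S_964 and rmsk_5S_556, with correlations of 0.874, 0.857 and 0.851. Those closest to Rny3 in fluid were the 5′ fragment tRNA-Met-CAT-1_fiveprime at 0.923 and the misc_RNA entries Gm24140 and Gm24379, both at 0.918. Gm24379 is one of the sequence copies of Rny1, with 89.5% identity over 38 bases, and had at most 80 counts in a fluid library.

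In tissue, the RNAs closest to Rny1 were the mitochondrial histidine tRNA mt-Th at 0.935, the RNase MRP RNA Rmrp at 0.877 and the snoRNA Snord73a at 0.876. Those closest to Rny3 were the 3′ fragment tRNA-Gly-GCC-1_threeprime at 0.932 and the snoRNA entries Gm22489 at 0.917 and Gm22744 at 0.892. In sperm, 3 snRNA entries, Gm25818, Gm23540 and Rnu1b2, were closest to Rny1, at 0.994, 0.981 and 0.981, and the microRNA Mir125a at 0.988 and the 5S repeats rmsk_5S_81 and rmsk_5S_169 at 0.971 and 0.970 were closest to Rny3. These correlations describe libraries of different segments and genotypes together and share their depth and scaling.

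Sequence copies of Rny1 differed in how widely their counts varied in fluid. Gm24372, with 86.7% identity over 105 bases and named after its values were seen, had 1349, 224 and 613 counts in WT caput fluid, 15, 1107 and 700 in WT corpus fluid and 27, 310 and 31 in WT cauda fluid. In KO it had 382, 1515 and 1053 counts in caput, 1429, 3031 and 417 in corpus and 2758, 3735 and 14 in cauda fluid. Its lowest libraries, WT corpus 1, WT cauda 1 and 3 and KO cauda 3, were also the libraries with the lowest Rny3 to Rny1 ratio in fluid. Another copy, Gm22199, with 73.95% identity over 119 bases and also named after its values were seen, ran from 3 to 1163 counts. It was lowest in the same libraries, with 3 counts in WT corpus 1, 9 in WT cauda 1, 10 in WT cauda 3 and 6 in KO cauda 3. In contrast, Gm26168, the closest copy of Rny1, had between 234 and 2049 counts in all fluid libraries. These are raw counts of libraries of different depth. In CPM, Gm26168 had 38.1, 57.8 and 62.8 in WT and 208, 170 and 97.0 in KO corpus fluid.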

How the data were processed

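The authors trimmed reads with cutadapt, mapped them with bowtie2 within a modified tRAX pipeline to mm10 with added tRNA and rRNA sequences, and deposited raw read counts per RNA, one table per sample type. Reads that matched tRNAs or rRNAs best were kept for those only. A read with several equally good matches elsewhere is taken to count once for each of them, so summed counts are not treated as read numbers. The submitters' processing notes also name UMI-tools, without saying whether copies were collapsed by molecular tag. Groups came from sample titles.

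Each table was filtered with filterByExpr (minimum count 10, minimum total 15), scaled by TMM and fitted over all its groups with edgeR 4.0.16 in R 4.3.3, with p-values adjusted over all 3488 (tissue), 2023 (fluid) or 2480 (sperm) RNAs. RNAs with an adjusted p under 0.05 that differed by more than 1 on the log2 scale were called. Alternatives were DESeq2 1.42.0, other scalings, no filter, 2 groups alone, the replicate block and leaving out each library. Tissue replicates 1 and 2 alone were added after seeing the data. The fit was tested on simulated counts. Copies were found with blastn 2.17.0 (word size 11, E-value under 0.001) and folding with RNAfold 2.7.2. Statistics and plots used python 3.11.15, numpy 2.4.6, pandas 2.3.3 and matplotlib 3.10.9. Replicate libraries differed by more than sampling noise in every pair.

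The Y RNAs, the list of 14 RNAs, the marker microRNAs and the comparisons were chosen with earlier results of these data known. Besides these, the rule for named RNAs took the 3 RNAs most correlated with each Y RNA in each table (log2 CPM, prior count 2, RNAs with identical counts once). WT and KO libraries of the same number deviated together in cauda tissue, with a mean correlation of 0.383 and a lowest of 0.272 over 3 pairs, and libraries of the WT tissue segments did so too (lowest 0.289), as did those of KO caput and cauda tissue (lowest 0.175) and of KO corpus and cauda fluid (lowest 0.131). The other genotype pairs had a pair of libraries under 0.1. Where libraries do not come from separate animals, p-values measure only the spread between these samples.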

Additional observations from a re-analysis of the deposited data

Results flagged for a closer look

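In KO cauda sperm, library 1 had a Rny3 to Rny1 ratio of 0.356, whereas the other 3 KO libraries lay between 0.277 and 0.280. The gap between the highest library and its nearest neighbour was 0.959 of the range of the group on the log2 scale, above the limit of Dixon's test for 4 libraries. This ratio lies close to that of the highest WT sperm library, 0.353. Chance alone marks about 1 in 20 tested sets of values in this way, and only the 2 sperm groups were large enough for the test. In both groups it was run on the CPM and the share of each Y RNA and on the ratio. At least 1 such mark among all of these is therefore likelier by chance than 1 in 20.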

How the results depend on the processing

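With Rny1 in corpus fluid and Rny3 from caput to cauda in WT fluid, the calls held under all alternatives. The higher Rny3 in KO corpus fluid no longer passed with total counts only (1.97) or with TMM factors without tRNAs, tRNA fragments and rRNA fragments (1.33). All values are log2 differences unless a unit is given, and the cause of a change was not tested where none is named.

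Most differences that changed sign were close to 0 in tissue. With total counts only, KO against WT was -0.026 for Rny1 and -0.087 for Rny3 in caput tissue, and for Rny3 -0.35 in corpus and -0.10 in cauda tissue. The same scaling gave -0.46 for Rny3 from caput to cauda and -0.035 for Rny1 from corpus to cauda in KO tissue, -0.014 for the difference of the KO effect on Rny3 between cauda and caput tissue, and -0.095 for Rny1 from corpus to cauda in WT fluid. With TMM factors without tRNAs and the fragments of tRNA and rRNA, KO against WT in caput tissue was -0.0076 for Rny1 and -0.093 for Rny3. In KO tissue these factors gave -0.20 for Rny3 from caput to cauda, -0.091 for Rny1 and -0.0060 for Rny3 from corpus to cauda, and in KO fluid -0.0070 for Rny3 from caput to corpus. The KO effect then differed by 0.22 for Rny3 between corpus and caput tissue and by -0.021 for Rny1 between cauda and corpus tissue. Rny3 in KO against WT caput tissue was -0.024 with the size factors of DESeq2 and -0.023 with its default test, and the KO effect on it differed by 0.045 and 0.042 between corpus and caput tissue. DESeq2 called Rny3 in cauda fluid (2.48). Without a filter, Rny3 was -0.0037 in KO against WT corpus tissue and -0.0061 from caput to corpus in KO fluid. With only the 2 groups compared, Rny3 was -0.044 in KO against WT corpus tissue, 0.026 from caput to corpus and 0.0070 from caput to cauda in WT tissue, and -1.55 from caput to corpus in WT fluid, where it passed the test, and Rny1 passed from caput to corpus in KO tissue (1.14).

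With the replicate number as a block, Rny1 in KO against WT cauda tissue passed (1.08), and Rny3 changed sign from caput to corpus in WT tissue (0.054) and KO tissue (0.20) and in the KO effect between corpus and caput tissue (0.15). Rny1 also passed from caput to corpus in KO tissue (1.32), where the libraries share only a number. The block changed no other call. With tissue replicates 1 and 2 only, an alternative chosen after seeing the data, Rny1 passed in KO against WT cauda tissue (1.32), from caput to corpus in WT (1.28) from caput to cauda in WT (1.13) and from caput to corpus in KO (1.34), and Rny3 was 0.33 from caput to corpus and 0.090 from caput to cauda in WT and 0.20 from caput to corpus in KO. The ratio of Rny3 to Rny1 in tissue was then -1.03 for corpus and -1.23 for cauda against caput, which no longer passed with fewer libraries, and -0.19 for cauda against corpus. With medians of libraries, the ratio was -0.12 in KO against WT corpus fluid, -0.89, -1.12 and -0.22 for corpus against caput, cauda against caput and cauda against corpus tissue, and -0.92 and -2.43 for corpus and cauda against caput fluid, none of which passed. The median share over WT libraries moved with its denominator. Of RNAs other than tRNAs, tRNA fragments and rRNA, Rny1 took 5.84% in fluid, 0.584% in sperm and 0.0595% in tissue, and Rny3 2.51%, 0.153% and 0.0167%. Of Ensembl entries, Rny1 took 6.13%, 0.689% and 0.0606% and Rny3 2.64%, 0.176% and 0.0170%.

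Leaving out 1 library at a time gave these ranges where a sign or a call changed. For KO against WT they were -0.070 to 0.59 for Rny1 and -0.15 to 0.46 for Rny3 in caput tissue, -0.090 to 0.22 for Rny3 in corpus tissue, 1.51 to 2.38 for Rny3 in corpus fluid and 1.72 to 3.25 for Rny3 in cauda fluid. In WT tissue, Rny1 ranged from 0.54 to 1.23 between caput and corpus, from 0.43 to 1.22 between caput and cauda and from -0.26 to 0.10 between corpus and cauda, and Rny3 from -0.27 to 0.41, from -0.34 to 0.41 and from -0.32 to 0.25. In KO tissue, Rny3 ranged from -0.18 to 0.11 between caput and corpus. In WT fluid, Rny1 ranged from -0.39 to 0.049 between caput and cauda and Rny3 from -2.59 to -1.25 between corpus and cauda. In KO fluid, Rny1 ranged from 0.86 to 1.45 between caput and corpus and from -0.18 to 0.16 between caput and cauda, and Rny3 from -0.13 to 0.48 between caput and corpus. The KO effect differed by -0.061 to 0.42 for Rny1 between cauda and caput fluid, by -0.036 to 0.67 for Rny1 between corpus and caput tissue, and for Rny3 by -0.093 to 0.67 between cauda and caput tissue, by -0.26 to 1.27 between cauda and corpus fluid and by -0.48 to 0.20 between corpus and caput tissue. For the ratio, KO against WT ranged from -0.12 to 0.085 in caput fluid and from -0.28 to 0.92 in corpus fluid, cauda against corpus tissue from -0.15 to 0.095, corpus against caput from -1.07 to -0.93 in tissue and from -1.53 to -0.93 in fluid, and cauda fluid against sperm from -1.61 to -0.84. Where 1 library of a group of 2 was left out, the other was taken to vary like the other groups.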
